A study of Mus musculus with 40 samples.

Results

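The genes described are 9 components of the hedgehog signalling pathway, Ptch1, Smo, Gli1, Gli2, Gli3, Hhip, Boc, Cdon and Gas1, chosen by name out of the 55487 genes of the count table and followed across all 40 libraries by cell type and treatment. The study differentiated mouse embryonic stem (ES) cells of a line made from B6.Cg-Tg(Hlxb9-GFP)1Tmj/J mice, in which the Hlxb9 (Hb9) promoter drives GFP in motor neurons. Embryoid bodies received retinoic acid and smoothened agonist, a small molecule that activates the receptor Smo, for which the labels give 1 mM and 0.5 mM and the study's methods the same digits in µM. Every library came from cells of embryoid bodies that had received both agents, and no group lacked the agonist. ES-astrocytes were propagated in serum with fibroblast and epidermal growth factors and later matured in the presence of forskolin, which raises cAMP by activating adenylyl cyclase.

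The 10 groups were ES-astrocytes and ES-motor neurons under each of 5 treatments, with 4 libraries per group. Control cultures received no mediator. The other ES-astrocyte cultures were stimulated for 24 h with IL-1α and TNF-α (il1a+tnfa), complement C1Q and C5 (c1q+c5), IL-1β and IL-6 (il1b+il6) or TGF-β2 (tgfb2). Sorted GFP-positive ES-motor neurons were then plated on the ES-astrocytes, so that the ES-motor neurons met the stimulus through 24 h of co-culture. About 200 cells were sorted again for each library, and polyadenylated RNA was sequenced after Tn5 tagmentation. Each replicate, lettered A to D, was a separate vial of the same ES line.

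Depth differed widely between libraries. ES-astrocyte libraries held 1510823 to 16054290 counts (median 4670241.5), and ES-motor neuron libraries held 6557 to 19717324 (median 1213482). ES-motor neuron control libraries ranged from 240859 to 19717324 counts, il1a+tnfa from 112775 to 445874, c1q+c5 from 6557 to 3285492, il1b+il6 from 80315 to 14329617 and tgfb2 from 283205 to 12606121. In ES-astrocytes the lowest and highest totals were 2848750 and 13384392 under control, 2019196 and 14831839 under il1a+tnfa, 1510823 and 10158932 under c1q+c5, 2141079 and 16054290 under il1b+il6, and 2787407 and 10099902 under tgfb2. In 9 ES-motor neuron libraries the total was under 20% of the median of all 40 libraries (2459460.5), among them all 4 of il1a+tnfa. Of the 9 genes, an ES-astrocyte library had counts for 4 to 7 (median 5) and an ES-motor neuron library for 0 to 5 (median 3), with 0 of 9 in the shallowest, c1q+c5 A. A count of 0 allows up to 3 counts, which is 0.381 CPM (counts scaled to the library total) in ES-astrocyte control A and 458 CPM in ES-motor neuron c1q+c5 A.

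Hedgehog ligands bind the receptor Ptch1, which otherwise holds Smo inactive, and active Smo acts through the primary cilium to shift the Gli transcription factors from repressor to activator forms. The co-receptors Boc, Cdon and Gas1 help the ligand to bind, whereas Hhip traps it, and Gli1, Ptch1 and Hhip are themselves transcriptional targets of the pathway. In the ventral neural tube graded Sonic hedgehog patterns the progenitors of motor neurons and glia, and protein kinase A, which cAMP activates, is a known negative regulator of Gli activity.

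The labelled cell types were compared with their markers first. The 8 astrocyte markers summed to 790 CPM at the lowest, 2135 at the median and 3475 at the highest in ES-astrocyte libraries, with Fabp7 most abundant, against 0, 318 and 625 CPM in ES-motor neurons, where most of the sum was Sox9. The 8 motor neuron markers summed to 2469, 3307 and 10738 CPM in ES-motor neurons, with Nefl most abundant, and to 213, 356 and 1377 CPM in ES-astrocytes, with Tubb3 most abundant. Of the 7 astrocyte markers tested, 6 were lower in ES-motor neurons and Sox9 was higher, and 7 of 8 motor neuron markers were higher there. All 3 fibroblast or mesenchyme markers and all 5 markers of dividing cells that were tested were lower in ES-motor neurons. ES-astrocytes also carried markers of other states. The 8 fibroblast or mesenchyme markers summed to 39.1, 194 and 926 CPM in ES-astrocytes, led by Dcn and with Postn at 0 in all 20 libraries, against at most 8.52 CPM in ES-motor neurons. Dcn alone had a median of 131 CPM in ES-astrocytes. Lum, Col3a1, Pdgfra and Twist1 had counts in only 2, 6, 1 and 6 of 20 ES-astrocyte libraries. The 5 markers of dividing cells summed to 449, 781 and 1138 CPM in ES-astrocytes, led by Top2a, and to at most 25.6 CPM in ES-motor neurons. Sums of the 5 oligodendrocyte lineage markers stayed at or under 43.9 CPM, with Mbp most abundant. The 5 microglia markers summed to at most 18.9 CPM, with Csf1r most abundant and Aif1 and P2ry12 at 0 in all 40 libraries, and the 4 pluripotency markers to at most 1.21 CPM, led by Nanog. The part of these other markers in the differences between cell types was not tested.

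Whether hedgehog components differed between the cell types was compared over all 5 treatments, 20 libraries against 20. Of the 9 genes, 6 passed the filter on low counts and 3 of these were called, Gli3, Ptch1 and Smo, all lower in ES-motor neurons. A call needed a change of more than 1 in log2 together with an adjusted p no greater than 0.05. Over all 13227 genes tested 14.9% were called, 511 higher and 1461 lower in ES-motor neurons. The median log2 fold change was -2.24 over the 6 tested hedgehog genes and -0.21 over all genes tested. Fewer cells of a kind and less RNA per cell cannot be told apart in these libraries.

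The ligands were close to absent from the counts. Shh, the ventralising ligand of the floor plate, had counts in 7 of 20 ES-astrocyte libraries, at most 5.98 CPM, and in 1 of 20 ES-motor neuron libraries, at 0.317 CPM. Ihh had 1 count, in an ES-motor neuron library, and Dhh had 0 counts in all 40 libraries. None of the 3 ligands passed the filter. Shh shares exonic bases with 9530036O11Rik and Gm26894, and the strand setting of the authors' counting is not given in the sources used here. Dhh shares exonic bases with Rhebl1 on the same strand and Gm49442 on the opposite strand, so its count of 0 is uncertain.

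Ptch1 (ENSMUSG00000021466, chr13:63508328-63573598, minus strand, GRCm38), the ligand receptor and a target of the pathway, was detected in most libraries. Its level in ES-astrocytes was 16.3 CPM at the lowest, 55.3 at the median and 141 at the highest, and in ES-motor neurons 0, 13.9 and 62.3 CPM. All 20 ES-astrocyte libraries and 17 of 20 ES-motor neuron libraries had counts. The ranges overlapped, with 9 ES-astrocyte libraries above every ES-motor neuron library and 19 ES-motor neuron libraries below the ES-astrocyte median. Ptch1 was lower in ES-motor neurons (log2 fold change -1.57 ± 0.33 SE, edgeR quasi-likelihood test, Benjamini-Hochberg adjusted p = 0.000332, n = 20 per cell type). In 19 ES-motor neuron libraries the limit set by 3 counts lay below the ES-astrocyte median, so depth was enough to see such a level there.

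Smo (ENSMUSG00000001761, chr6:29735503-29761365, plus strand), the signal transducer that the agonist binds, differed more strongly in the number of libraries with counts. ES-astrocytes held 0 CPM at the lowest, 8.39 at the median and 30.6 at the highest, with counts in 18 of 20 libraries. ES-motor neurons held 0, 0 and 8.52 CPM, with counts in 8 of 20 libraries. The ranges overlapped, with 10 ES-astrocyte libraries above every ES-motor neuron library. Smo was called lower in ES-motor neurons (log2 fold change -3.35 ± 0.82 SE, edgeR with Benjamini-Hochberg adjusted p = 0.00184). The 3-count limit lay below the ES-astrocyte median in 12 ES-motor neuron libraries and above it in 8, where a count of 0 leaves room for such a level. Of these 8, il1a+tnfa A and control C had 1 Smo count each.

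The co-receptors did not share this pattern of calls. Gas1 (ENSMUSG00000052957, chr13:60174405-60177365, minus strand), a membrane-anchored co-receptor, held 0, 7.14 and 49.6 CPM in ES-astrocytes with counts in 17 of 20 libraries. In ES-motor neurons it held 0, 9.20 and 26.6 CPM with counts in 19 of 20. The ES-motor neuron range lay inside the ES-astrocyte range, and the log2 fold change was 0.24 ± 0.62 SE (edgeR with Benjamini-Hochberg adjusted p = 0.866). In the control libraries alone it was -0.91. Cdon (ENSMUSG00000038119, chr9:35421128-35507652, plus strand) had counts in 10 of 20 ES-astrocyte libraries, up to 30.5 CPM, and in 6 of 20 ES-motor neuron libraries, up to 20.4 CPM. Its log2 fold change of -0.63 ± 1.29 SE (edgeR with Benjamini-Hochberg adjusted p = 0.828) became 0.38 without the 9 shallow libraries and -1.25 without ES-motor neuron tgfb2 B. Boc (ENSMUSG00000022687, chr16:44485049-44558897, minus strand) had counts in 4 of 20 ES-astrocyte libraries, up to 18.8 CPM, and 0 in all 20 ES-motor neuron libraries, and it did not pass the filter (permutation p = 0.106, 20 against 20, two-sided).

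Gli3 (ENSMUSG00000021318, chr13:15463235-15730026, plus strand), the Gli factor best known as a repressor, showed the largest difference among the 6 tested. ES-astrocytes held 0.720 CPM at the lowest, 21.7 at the median and 78.1 at the highest, with counts in all 20 libraries. ES-motor neurons held 0, 0 and 10.6 CPM, with counts in 5 of 20 libraries. The ranges overlapped only at their ends, with 15 ES-astrocyte libraries above every ES-motor neuron library, of which the highest, tgfb2 A, rested on 3 counts. Gli3 was lower in ES-motor neurons (log2 fold change -5.72 ± 0.83 SE, edgeR with Benjamini-Hochberg adjusted p = 4.19e-07), and without tgfb2 A the value was -6.37. In 16 ES-motor neuron libraries the 3-count limit lay below the ES-astrocyte median.

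Gli1 (ENSMUSG00000025407, chr10:127329882-127341974, minus strand), an activator and the usual transcriptional readout of the pathway, was detected in 1 of 40 libraries. ES-astrocyte control B held 32 counts, or 2.39 CPM, and the other 39 libraries held 0. Gli2 (ENSMUSG00000048402, chr1:118834132-119053619, minus strand), the main activator downstream of Smo, had counts in 6 of 20 ES-astrocyte libraries, up to 3.74 CPM, and 0 in all ES-motor neuron libraries. Neither passed the filter. The permutation test of mean CPM gave p = 1 for Gli1 and p = 0.0188 for Gli2 (two-sided, 20 libraries against 20, not adjusted), and without a filter on low counts edgeR called Gli2 (log2 fold change -3.55, Benjamini-Hochberg adjusted p = 0.0305). The permutation test takes no account of the limit that depth sets on a count of 0. Median depth was 1213482 counts in ES-motor neurons and 4670241.5 in ES-astrocytes. Among the libraries left without the 9 shallow ones, where Gli2 passed the filter, its log2 fold change was -3.84 and it was not called (edgeR with Benjamini-Hochberg adjusted p = 0.0631). Pooled over the 20 ES-motor neuron libraries, 3 counts equal 0.0448 CPM, against which the pooled ES-astrocyte level was at least 5.93-fold higher for Gli1, 8.53-fold for Gli2 and 14.1-fold for Boc. The Gli1 bound rests on ES-astrocyte control B alone, and without it no fold can be given. Without il1a+tnfa D the bound for Boc was 7.17-fold, and without c1q+c5 C it was 9.01-fold. The pooled limit rests mostly on a few deep ES-motor neuron libraries.

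Hhip (ENSMUSG00000064325, chr8:79965851-80058006, minus strand), the ligand trap and a pathway target, had counts in 7 of 20 ES-astrocyte libraries, up to 42.7 CPM. In ES-motor neurons 3 of 20 libraries had counts, up to 9.84 CPM. Of the libraries with counts, 3 were ES-astrocyte c1q+c5, all il1a+tnfa libraries of both cell types held 0, and most libraries of both cell types held 0. The log2 fold change was -2.91 ± 1.34 SE (edgeR with Benjamini-Hochberg adjusted p = 0.141), and DESeq2 gave -1.28. It was -4.09 without ES-motor neuron tgfb2 B, -3.59 without ES-motor neuron control C, and -2.31, -2.09 and -2.09 without ES-astrocyte tgfb2 C, control A or il1b+il6 B, and edgeR called it in none of these.

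**Figure D1:**
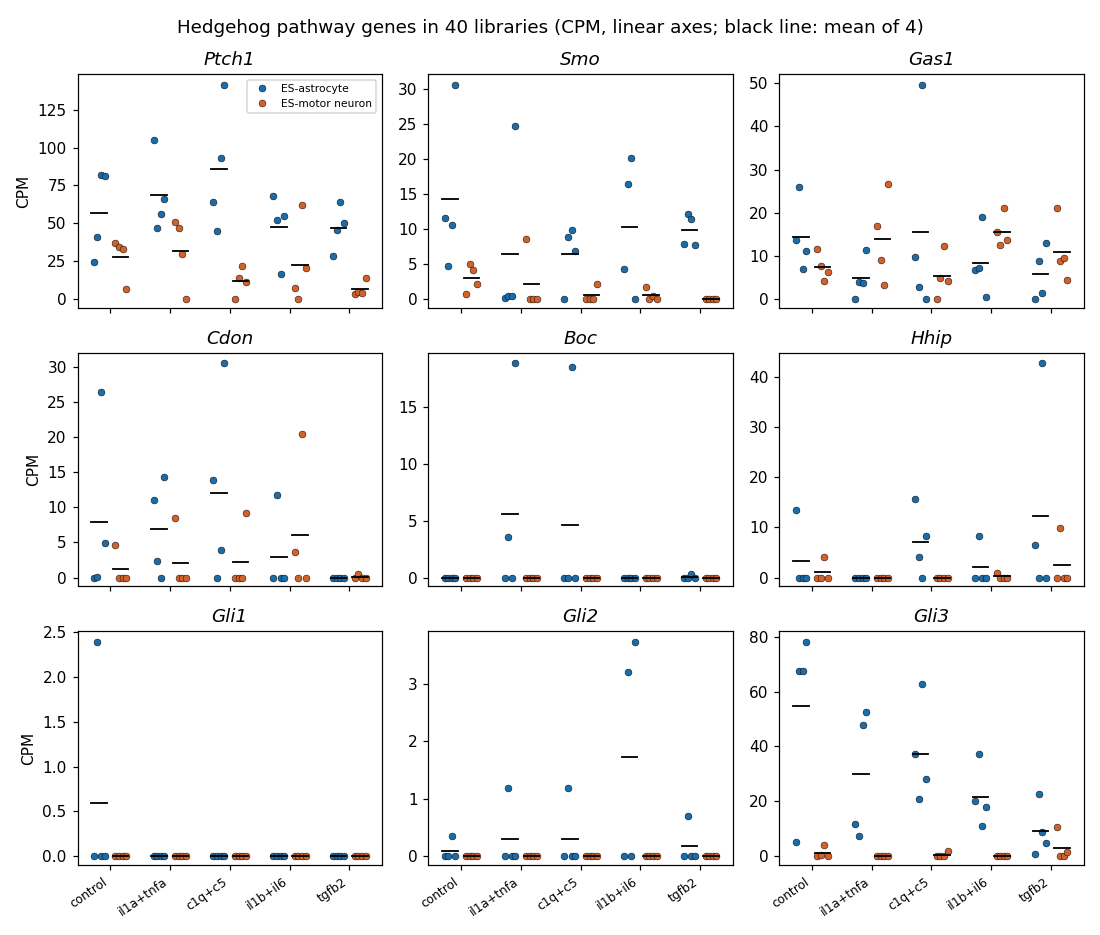
CPM of each of the 9 genes on a linear axis (vertical) in ES-astrocyte and ES-motor neuron libraries under the 5 treatments (horizontal). Each point is 1 library and each black line the mean of 4 libraries, and Gli3 sits at or under 10.6 CPM in every ES-motor neuron library while ES-astrocytes reach 78.1 CPM.

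Treatment was partly tied to a plate index that the submitters' sample sheet gives each library. It was 1 for control and il1a+tnfa and 2 for the other 3 stimuli. What this plate was is not given in the sheet, and for those 3 stimuli plate index and stimulus cannot be told apart. The second index primer was S337 or S339 in ES-astrocytes and S338 or S340 in ES-motor neurons, so primer and cell type cannot be told apart either. Within plate index 2, chosen as a check after seeing the data, the cell type difference was -4.83 for Gli3, -1.87 for Ptch1 and -4.11 for Smo, all called by edgeR (Benjamini-Hochberg adjusted p = 0.00469, 0.00418 and 0.0124). Within plate index 1 only Gli3 was called, at -7.20 (edgeR, Benjamini-Hochberg adjusted p = 0.000117), while Ptch1 gave -1.06 (adjusted p = 0.259) and Smo -2.22 (adjusted p = 0.373). In the 4 control libraries of each cell type alone, edgeR with Benjamini-Hochberg adjustment again called Gli3, at -7.14 (adjusted p = 0.0288), but neither Ptch1, at -1.07 (adjusted p = 0.673), nor Smo, at -2.27 (adjusted p = 0.579). The directions of these 3 genes were the same in all 3 subsets, and the difference between the plates was not tested. Over the 8 alternatives run, edgeR or DESeq2 adjusted p ran up to 0.0288 for Gli3, from 4.28e-06 to 0.673 for Ptch1 and from 0.000285 to 0.579 for Smo.

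**Figure D2:**
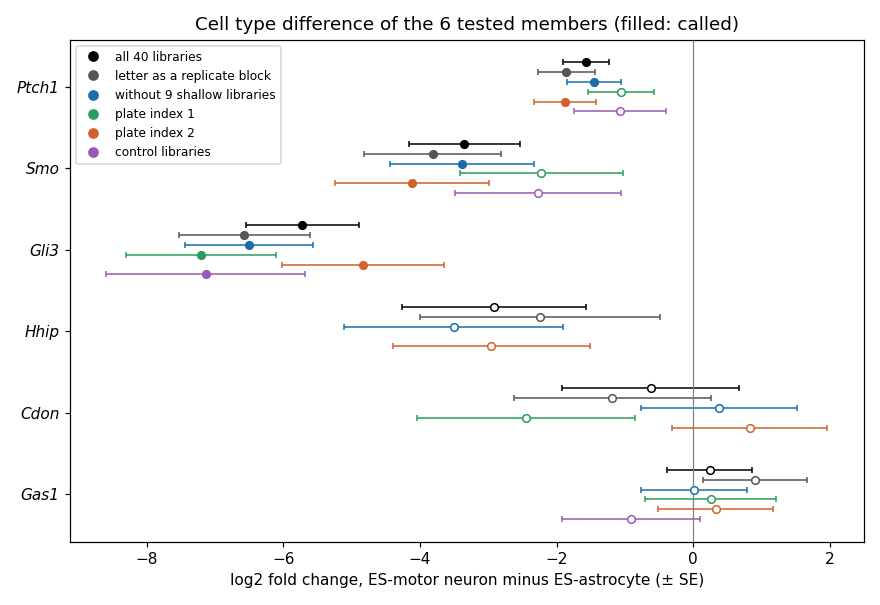
Log2 fold change of ES-motor neurons against ES-astrocytes (horizontal) for the 6 tested genes (vertical), with bars of 1 SE, in all 40 libraries and under 5 other choices of libraries or terms given in the key. Filled points were called. Gli3 was called in each, from -7.20 to -4.83, and Ptch1 and Smo were not called within plate index 1 or in the control libraries alone.

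Levels of different genes were ordered on CPM per kilobase of exon. In ES-astrocytes the order of mean level was Ptch1 (4.32 ± 2.06 SD CPM per kb, n = 20), Gas1 (3.31), Gli3 (3.18), Smo (1.68), Cdon (0.772), Hhip (0.546), Boc (0.464), Gli2 (0.0753) and Gli1 (0.0239). No gene differed from its neighbour in this order by more than 1 SD of the paired differences, although Ptch1 lay above Gas1 in 15 of 20 libraries. In ES-motor neurons Gas1 came first (3.61 ± 2.34 SD CPM per kb, n = 20), followed by Ptch1 (1.42), Cdon (0.304), Smo (0.222), Gli3 (0.0964) and Hhip (0.0824), with Gli1, Gli2 and Boc at 0. Only the step from Ptch1 to Cdon exceeded 1 SD there, and it was seen in 16 of 20 libraries. These orders pool the treatments. In ES-astrocyte controls alone Gli3 came first (5.69 ± 3.47 SD CPM per kb, n = 4), before Gas1 (4.88 ± 2.75) and Ptch1 (4.03 ± 2.04).

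The remaining components of the pathway were compared between cell types as a list. Of 36 further genes, which include ligands, their release, regulators of Smo and Gli and the primary cilium, 29 were tested and 2 were called, both lower in ES-motor neurons. That is 6.90% of the 29, against 14.9% of all genes tested, and the median log2 fold change over the 29 was -0.28 against -0.21 over all genes. Ift27, a subunit of intraflagellar transport in the cilium, was lower (log2 fold change -1.04 ± 0.25 SE, edgeR with Benjamini-Hochberg adjusted p = 0.00164). Kif7, a ciliary kinesin that regulates Gli, was lower as well (-1.78 ± 0.63 SE, edgeR with Benjamini-Hochberg adjusted p = 0.0370), but it shares exonic bases with Ticrr and 9330171B17Rik on the opposite strand, so its counts are uncertain. Spop, an adaptor for the degradation of Gli proteins, had an adjusted p of 0.0474 by edgeR but a log2 fold change of -0.71, under the threshold. By role, 1 of 10 negative regulators of Gli, 1 of 8 cilium genes, and 0 of 5 positive regulators, 0 of 3 regulators of Smo, 0 of 2 genes of ligand processing and 0 of 1 other receptors tested were called. In the whole comparison edgeR gave 3762 genes at an unadjusted p under 0.05, and DESeq2 called 1824 genes.

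Known targets outside the 9 genes moved in both directions. Of 10 listed targets 8 were tested, and 4 were called lower and 1 higher in ES-motor neurons. That is 62.5% of the 8, against 14.9% of all genes tested. The median log2 fold change was -1.50, against -0.21 over all genes. It was also -1.50 with the 2 tested targets at 0 in every ES-motor neuron library set at their bounds. Both bounds lie far below the median, so setting them could not have moved it. Ccnd1, the cyclin that drives entry into the cell cycle, held 115, 278 and 594 CPM in ES-astrocytes against 0, 4.47 and 35.5 in ES-motor neurons (log2 fold change -5.73 ± 0.32 SE, edgeR with Benjamini-Hochberg adjusted p = 1.68e-19). Nkx6-1, a ventral progenitor factor, held 56.0, 149 and 384 CPM in ES-astrocytes against 0, 42.7 and 74.7 in ES-motor neurons (-1.89 ± 0.21 SE, edgeR with Benjamini-Hochberg adjusted p = 1.15e-09). The ranges of Ccnd1, which shares exonic bases with LTO1 on the opposite strand, did not overlap, and those of Nkx6-1 overlapped. Foxa2, a floor plate factor, held 0.351, 13.8 and 43.9 CPM in ES-astrocytes and 0 in all 20 ES-motor neuron libraries, a pooled level at least 353-fold higher in ES-astrocytes (edgeR with Benjamini-Hochberg adjusted p = 9.31e-08). Nkx2-2, also called lower, was at 0 in all 20 ES-motor neuron libraries, a pooled level at least 134-fold higher in ES-astrocytes (edgeR with Benjamini-Hochberg adjusted p = 9.81e-06). It shares exonic bases with Nkx2-2os on the opposite strand. The single target called higher in ES-motor neurons was Mycn (log2 fold change 1.45 ± 0.29 SE, edgeR with Benjamini-Hochberg adjusted p = 0.000162), named after its value was seen. Markers of dividing cells, as given above, were also far higher in ES-astrocytes, and their part in the Ccnd1 difference was not tested.

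Next, each stimulus was compared with the control within a cell type, to see whether hedgehog components responded. The 4 comparisons in a cell type share the same 4 control libraries. Of the 72 combinations of gene and comparison, 25 passed the filter and edgeR called 0 of them, 2 having an unadjusted p under 0.05. In ES-astrocytes edgeR called 0 of 5 tested hedgehog genes and 0 of 10444 genes (0%) for il1a+tnfa, where 93 genes had an unadjusted p under 0.05 and DESeq2 called 11 genes. It called 0 of 6 and 0 of 10865 (0%) for c1q+c5 (106 at an unadjusted p under 0.05, 6 by DESeq2), 0 of 4 and 0 of 10240 (0%) for il1b+il6 (119 and 12), and 0 of 4 and 0 of 10794 (0%) for tgfb2 (136 and 19). In ES-motor neurons edgeR called 0 of 1 hedgehog gene and 0 of 4479 genes (0%) for il1a+tnfa (143 at an unadjusted p under 0.05, 0 by DESeq2), 0 of 1 and 0 of 7348 (0%) for c1q+c5 (322 and 0, with 2 genes called without control D), and 0 of 2 and 0 of 8327 (0%) for il1b+il6 (98 and 1). For tgfb2 it called 0 of 2 hedgehog genes and 1 of 7947 genes (0.0126%, 221 at an unadjusted p under 0.05, 11 by DESeq2), and the called gene was Hoxa5 (log2 fold change 3.05 ± 0.44 SE, edgeR with Benjamini-Hochberg adjusted p = 0.0103), named after its value was seen. Without tgfb2 A, tgfb2 D or control C that count was 0. DESeq2 called none of the 9 genes in any of the 8 comparisons. With so few calls among all genes, these counts of 0 say little about the hedgehog genes themselves.

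Gli3 in ES-astrocytes under tgfb2 gave 1 of the 2 tests with an unadjusted p under 0.05. Its level in the 4 control libraries A to D was 5.21, 67.5, 67.4 and 78.1 CPM. Under tgfb2 it was 0.720, 22.8, 8.97 and 4.72 CPM. Apart from control A, every control library was above every tgfb2 library, and control A lay inside the tgfb2 range, so the groups overlapped. The log2 fold change was -2.66 ± 1.11 SE (edgeR with Benjamini-Hochberg adjusted p = 1.00), and -3.59 without tgfb2 B. Without control A it was -3.05 (edgeR with Benjamini-Hochberg adjusted p = 0.640). The library control A also had the lowest sum of astrocyte markers of its group, 790 CPM against 2698 to 3475 in the other 3, and the highest sum of motor neuron markers, 1283 CPM against 213 to 330. Under tgfb2 the astrocyte markers summed to 1523 to 1848 CPM, below controls B, C and D and above control A. Fibroblast markers summed to 372 to 524 CPM under tgfb2 and to 111, 926, 190 and 252 CPM in controls A to D. Controls A, C and D were thus below every tgfb2 library and control B was above them. The part of these markers in the Gli3 values was not tested.

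Under the other stimuli Gli3 stayed between these levels in ES-astrocytes. With il1a+tnfa the 4 libraries held 11.6, 7.49, 47.9 and 52.5 CPM. With c1q+c5 they held 37.4, 20.7, 62.9 and 28.1 CPM, and with il1b+il6 A, B and D held 20.2, 37.2 and 17.7 CPM, with C lowest from 176 counts in the deepest ES-astrocyte library. All 3 groups overlapped the controls through control A. In il1b+il6 Gli3 again had the smallest p of the tested hedgehog genes, with a log2 fold change of -1.37 ± 0.82 SE (edgeR with Benjamini-Hochberg adjusted p = 1.00). By mean, the order was control (54.5 ± 33.3 SD CPM, n = 4), c1q+c5 (37.2 ± 18.4), il1a+tnfa (29.9 ± 23.6), il1b+il6 (21.5 ± 11.1) and tgfb2 (9.30 ± 9.60), and only the step from il1b+il6 to tgfb2 exceeded the SD of both neighbours. In ES-motor neurons Gli3 was at 0 in all libraries of il1a+tnfa and il1b+il6 and reached 4.15 CPM in controls, 1.83 under c1q+c5 and 10.6 under tgfb2.

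The other such test was Ptch1 in ES-motor neurons under tgfb2, where its mean was lowest (6.49 ± 4.77 SD CPM, n = 4). The 4 control libraries held 36.7, 34.3, 33.2 and 6.71 CPM, from 47, 677, 8 and 16 counts. The tgfb2 libraries held 3.53, 4.68, 4.13 and 13.6 CPM, from 1, 59, 7 and 18 counts. Control D fell inside the tgfb2 range, so the groups overlapped, and the other 3 controls were above all 4 tgfb2 libraries. The log2 fold change was -1.93 ± 0.84 SE (edgeR with Benjamini-Hochberg adjusted p = 0.999), and -2.60 without tgfb2 D. Motor neuron markers summed to 2496, 3724, 2469 and 2544 CPM under tgfb2 against 3850, 4267, 2832 and 3457 CPM in controls, and Nefl, their most abundant gene, at 1402 to 1540 CPM under tgfb2, was below every control (1574 to 2188 CPM). The sums overlapped, and the part of these markers in the Ptch1 and Smo values was not tested.

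Ptch1 varied as much within the other groups of ES-motor neurons. Under il1a+tnfa the libraries held 51.1, 47.1, 29.9 and 0 CPM, all of them shallow, with at most 21 counts. The log2 fold change was 0.25 ± 0.71 SE (edgeR with Benjamini-Hochberg adjusted p = 0.991), and its sign turned without il1a+tnfa B (-0.02) or without control D (-0.10). Under c1q+c5 the libraries held 0, 14.1, 21.8 and 11.3 CPM, of which the 0 came from the shallowest library, and the log2 fold change was -0.71 ± 0.74 SE (edgeR with Benjamini-Hochberg adjusted p = 0.997). Under il1b+il6 they held 7.40, 0, 62.3 and 20.4 CPM, spanning the whole range of Ptch1 in ES-motor neurons.

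In ES-astrocytes Ptch1 had counts in every library under every treatment. The controls held 24.5, 40.9, 81.8 and 81.3 CPM and the il1a+tnfa libraries 105, 46.9, 55.9 and 66.4 CPM. The c1q+c5 libraries held 63.9, 45.0, 93.3 and 141 CPM, the il1b+il6 libraries 68.2, 52.1, 16.3 and 54.6 CPM and the tgfb2 libraries 28.3, 45.3, 64.2 and 50.4 CPM. All groups overlapped. The order of the means was c1q+c5 (85.9 ± 42.0 SD CPM, n = 4), il1a+tnfa (68.6 ± 25.6), control (57.1 ± 29.0), il1b+il6 (47.8 ± 22.2) and tgfb2 (47.1 ± 14.8), and no neighbouring means differed by more than their SD. Against control the log2 fold changes ran from -0.34 ± 0.58 SE for tgfb2 to 0.41 ± 0.57 SE for c1q+c5, none called by edgeR.

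Smo in ES-motor neurons was detected in all 4 control libraries and in none under tgfb2. The controls held 0.781, 5.07, 4.15 and 2.10 CPM, from 1, 100, 1 and 5 counts. The 4 tgfb2 libraries held 0 CPM, with 3-count limits of 10.6, 0.238, 1.77 and 2.27 CPM. The groups did not overlap (exact permutation p = 0.0286, two-sided, the smallest that 4 against 4 allows), but the limits of 3 tgfb2 libraries lay above the lowest control level and only that of tgfb2 B lay below it. Among the 7947 genes tested by edgeR in this comparison 2.64% did not overlap between the groups, and Smo itself did not pass the filter. The other groups of ES-motor neurons had Smo counts in 1, 1 and 2 of 4 libraries, under il1a+tnfa (up to 8.52 CPM), c1q+c5 (up to 2.13) and il1b+il6 (up to 1.67).

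Smo was uneven between ES-astrocyte libraries of the same group. The controls held 11.6, 4.78, 10.5 and 30.6 CPM, and the il1a+tnfa libraries held 0.202, 0.394, 0.470 and 24.8 CPM, where D stood far above the other 3. The c1q+c5 libraries held 0, 8.86, 9.93 and 6.92 CPM, with a log2 fold change against control of -1.33 ± 1.42 SE (edgeR with Benjamini-Hochberg adjusted p = 1.00), which was -0.55 without control D. The il1b+il6 libraries held 4.33, 16.5, 20.2 and 0 CPM and the tgfb2 libraries 7.92, 12.2, 11.5 and 7.72 CPM. The tgfb2 group was the most even and lay within the range of the controls.

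Gas1 in ES-motor neurons was higher in every il1b+il6 library than in every control library. The controls held 11.7, 7.76, 4.15 and 6.29 CPM, and the il1b+il6 libraries held 15.5, 12.5, 21.1 and 13.6 CPM, of which B and D rested on 1 and 2 counts. The groups did not overlap, as was the case for 1.69% of the 8327 genes tested, and the log2 fold change was 1.02 ± 0.90 SE (edgeR with Benjamini-Hochberg adjusted p = 1.00). Gas1 held 3.33 to 26.6 CPM under il1a+tnfa, from 2, 4, 1 and 3 counts, 0, 4.95, 12.2 and 4.26 CPM under c1q+c5, and 21.2, 8.88, 9.44 and 4.53 CPM under tgfb2. Those 3 groups overlapped the controls.

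In ES-astrocytes Gas1 had the smallest p of the 5 tested hedgehog genes under il1a+tnfa. The controls held 13.7, 25.9, 7.02 and 11.1 CPM and the il1a+tnfa libraries 0, 3.94, 3.76 and 11.4 CPM. The groups overlapped through il1a+tnfa D, and the log2 fold change was -1.70 ± 1.53 SE (edgeR with Benjamini-Hochberg adjusted p = 1.00), and -2.71 without il1a+tnfa D. Gas1 means under the other stimuli were 15.5 ± 23.1 SD CPM for c1q+c5, where C alone held 49.6, 8.38 ± 7.73 for il1b+il6 and 5.83 ± 6.19 for tgfb2, against 14.5 ± 8.13 in controls (n = 4 each).

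The sparse genes had no group in which all 4 libraries were detected. In ES-astrocytes Hhip was highest in tgfb2 C at 42.7 CPM and was at 0 in all il1a+tnfa libraries. Cdon reached 30.5 CPM under c1q+c5 and was at 0 in all 4 tgfb2 libraries, while 3 of 4 control libraries had counts (exact permutation p = 0.143, two-sided, n = 4). Boc was found only under il1a+tnfa (2 of 4 libraries, 3.55 and 18.8 CPM), c1q+c5 (1 of 4, 18.5 CPM) and tgfb2 (1 of 4, 0.359 CPM from 1 count). Gli2 had counts under every treatment in ES-astrocytes, in 2 of 4 libraries of il1b+il6 (3.21 and 3.74 CPM) and in 1 of 4 of each other group.

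Whether the cell type difference itself depended on treatment was tested with the interaction of both. edgeR called 0 of 6 hedgehog genes and 0 of 13227 genes (0%), with 808 genes at an unadjusted p under 0.05. DESeq2 was not run for the interaction. The smallest p among hedgehog genes was that of Gli3 (edgeR with Benjamini-Hochberg adjusted p = 0.772).

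The 3 genes known as targets of Gli, Gli1, Ptch1 and Hhip, were then related to each other over the 20 ES-astrocyte libraries on log2(CPM + 1), with 3 pairs computed. Ptch1 and Hhip gave Pearson r = -0.0645 (permutation p = 0.790, Benjamini-Hochberg adjusted over the 3 pairs 0.951) and Spearman rho = -0.125 (permutation p = 0.601, adjusted 0.902). Gli1 and Ptch1 gave r = -0.139 (permutation p = 0.448, adjusted 0.951) and rho = -0.259 (p = 0.397, adjusted 0.902). Gli1 and Hhip gave r = -0.160 (permutation p = 0.951, adjusted 0.951) and rho = -0.163 (p = 1, adjusted 1). Both Gli1 relations rest on the single library with Gli1 counts and could not be computed without the 2 libraries farthest from the median of Gli1. For Ptch1 and Hhip leaving out the 2 libraries farthest from the median of Ptch1 gave r = -0.376 (permutation p = 0.125). Within the second index primer, a split chosen after seeing the data, that pair gave r = -0.391 with S337 (n = 10) and 0.386 with S339 (n = 10), so no direction held.

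Genes most like Gli1 over the ES-astrocyte libraries were sought among 13216 genes. The most alike was Nt5dc1 (r = 0.883, counts in 5 of 20 libraries). Lin7b came next (counts in 6 of 20), followed by Fam196b (r = 0.782, counts in 2 of 20), and all these values rest on the single library with Gli1. The genes most like Ptch1 had counts in all 20 libraries and were Kcnq1ot1 (r = 0.836), Ube4b (r = 0.781) and Sox21 (r = 0.763). Sox21 held 8.78 CPM at the lowest, 42.6 at the median and 268 at the highest. These correlations are descriptions over libraries that differ in depth.

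The promoters of the 3 genes called between cell types are shown because these genes were all lower in ES-motor neurons. Sequences of 300 bases, from 250 before to 50 after the start, came from RefSeq on GRCm38.p6 and matched 7 of the 9 genes, without Gli1 and Boc. They are written 5′ to 3′ on the gene's strand with each CG dinucleotide in capitals, for Ptch1 at chr13:63565686-63565985 (minus strand), Smo at chr6:29735247-29735546 (plus strand) and Gli3 at chr13:15463473-15463772 (plus strand). The Ptch1 and Gli3 stretches lie inside the GENCODE gene spans given above.
Ptch1: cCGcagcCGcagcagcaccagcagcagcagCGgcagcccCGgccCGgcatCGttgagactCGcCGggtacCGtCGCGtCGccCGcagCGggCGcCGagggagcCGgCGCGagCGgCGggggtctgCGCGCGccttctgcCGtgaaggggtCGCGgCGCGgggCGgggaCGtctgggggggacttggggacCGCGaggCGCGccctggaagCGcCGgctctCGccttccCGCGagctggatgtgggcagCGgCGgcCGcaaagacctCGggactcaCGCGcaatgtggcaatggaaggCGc
Smo: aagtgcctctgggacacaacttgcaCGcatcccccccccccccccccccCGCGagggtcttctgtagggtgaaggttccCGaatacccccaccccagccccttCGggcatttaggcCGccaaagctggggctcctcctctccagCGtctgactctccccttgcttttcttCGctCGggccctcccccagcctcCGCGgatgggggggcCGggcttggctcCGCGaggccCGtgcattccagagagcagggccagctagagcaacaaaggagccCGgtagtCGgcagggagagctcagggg
Gli3: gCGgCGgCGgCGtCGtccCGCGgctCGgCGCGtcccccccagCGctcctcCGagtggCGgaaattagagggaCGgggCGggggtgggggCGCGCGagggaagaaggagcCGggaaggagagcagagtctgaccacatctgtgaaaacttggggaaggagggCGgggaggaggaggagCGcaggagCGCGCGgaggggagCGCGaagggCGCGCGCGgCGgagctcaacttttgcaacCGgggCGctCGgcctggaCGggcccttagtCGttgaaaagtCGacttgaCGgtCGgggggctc
Ptch1 held 47 CG dinucleotides, a number reached by 1.44% of the 32851 promoters in the table, Gli3 held 39 (4.45%) and Smo 17 (31.4%), against a median of 7. The Gli binding motif GACCACCCA, searched on both strands as GACCACCCA and TGGGTGGTC, was found in 0 of the 7 promoters and in 0.253% of all promoters. This says only that these letters are not in these windows.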

How the data were processed

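The count table of the 40 libraries was used as the authors deposited it: whole-number gene counts, not normalized, from polyadenylated RNA aligned with STAR according to the submitters' processing notes, which also name DESeq2. The study's methods name Ensembl gene IDs for annotation, while the release, genome build and strand setting are not given in the sources used. Gene names and coordinates came from GENCODE M21 (GRCm38), which named 55227 of 55487 IDs, and the other 260 held 0.117% of counts. Gli1, Gli3, Hhip and Gas1 share exonic bases with genes on the opposite strand (Arhgap9 and Gm47200, Gm6556, Gm27820, Gm48488), so without a known strand setting their counts are uncertain, whereas Ptch1, Smo, Gli2, Boc and Cdon share none. Such overlaps were looked up for listed genes only, not for Hoxa5 or the correlated genes. No 2 libraries held identical columns.

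Library totals ran from 6557 to 19717324 counts. CPM is the count scaled to a library's total. Counts were fitted across all genes with edgeR 4.0.16 (TMM, filterByExpr, robust quasi-likelihood fit and test, Benjamini-Hochberg adjustment) in R 4.3.3. The cell type comparison used 40 libraries with treatment as a term, each stimulus comparison the 8 libraries of its 2 groups, and the interaction test cell type, treatment and their interaction. Calls needed an adjusted p of at most 0.05 and, except for the interaction, an absolute log2 fold change above 1. Genes that did not pass the filter were compared by two-sided permutation of mean CPM (exact for 4 against 4, 100000 resamples for 20 against 20) in Python 3.11.15 with scipy 1.17.1. DESeq2 1.42.0 was an alternative, beside other size factors, no filter, a replicate block, subsets of libraries and leaving out each library.

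A count of 0 was given a limit of 3 counts, which covers counting error only, since the reads carry no molecular identifiers. Replicates are vials of 1 ES line, and p-values measure the spread between libraries. The 20 libraries of a cell type carry only the letters A to D, so they may not be 20 separate vials. Samples were not paired by letter, and whether equal letters share a vial or co-culture is not settled by these data. The 9 genes and the lists were chosen with earlier results of these data known. Named are all 9 genes in the cell type comparison, in each stimulus comparison the called ones or otherwise that of smallest p, all ligands, the 3 genes of smallest p in each further list, and the 3 genes most correlated with Gli1 and with Ptch1.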

Additional observations from a re-analysis of the deposited data

Results flagged for a closer look

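In 27 of the 62 combinations of a hedgehog gene and a group of 4 libraries with any variation, 1 library stood apart from the other 3 by Dixon's criterion at the 95% level. Chance flags about 1 in 20 groups of a normal spread, but in 20 of the 27 the other 3 libraries were at 0, where any count meets the criterion.

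In 7 cases the other libraries were not all at 0. Ptch1 was low at 6.71 CPM in ES-motor neuron control D and high at 13.6 CPM in ES-motor neuron tgfb2 D. Smo was high at 24.8 CPM in ES-astrocyte il1a+tnfa D. Gli3 was low at 5.21 CPM in ES-astrocyte control A, and high at 4.15 CPM in ES-motor neuron control C (1 count) and at 10.6 CPM in ES-motor neuron tgfb2 A (3 counts). Hhip was high at 42.7 CPM in ES-astrocyte tgfb2 C.

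Among the single libraries with counts beside 3 at 0, ES-astrocytes had Gli1 at 2.39 CPM in control B, and Gli2 at 0.351 CPM in control C, 1.18 CPM in il1a+tnfa B, 1.18 CPM in c1q+c5 B and 0.693 CPM in tgfb2 B. Hhip was at 13.5 CPM in control A and 8.33 CPM in il1b+il6 B, Boc at 18.5 CPM in c1q+c5 C and 0.359 CPM in tgfb2 C, and Cdon at 11.8 CPM in il1b+il6 B. In ES-motor neurons Smo was at 8.52 CPM in il1a+tnfa A and 2.13 CPM in c1q+c5 D, and Gli3 at 1.83 CPM in c1q+c5 D. Hhip was at 4.15 CPM in control C, 0.977 CPM in il1b+il6 A and 9.84 CPM in tgfb2 B. Cdon was at 4.68 CPM in control A, 8.52 CPM in il1a+tnfa A, 9.13 CPM in c1q+c5 D and 0.476 CPM in tgfb2 B.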

How the results depend on the processing

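By cell type, 3 hedgehog genes were called by edgeR, by DESeq2, with RLE size factors, without the 9 shallow libraries, within plate index 2 and without each of the 40 libraries in turn (3 to 3). It was 1, Gli3, in the control libraries alone and within plate index 1, both of which have fewer samples, and without a filter Gli2 was called as well. The genes called over all tested numbered 1972, against 228 in the control libraries alone, 742 within plate index 1 and 1249 within plate index 2, 1824 by DESeq2, 2833 without a filter, 1641 without the shallow libraries and 2014 to 2223 without single libraries, where 13705 to 14001 genes passed the filter against 13227. Plate subsets, RLE size factors and second index primer terms for the stimulus comparisons, and the primer subsets of the relations were chosen after seeing the data. The direction of Cdon turned to 0.38 without the shallow libraries and to 0.82 within plate index 2, while within plate index 1 Cdon was at -2.45. That of Gas1 turned to -0.91 in the control libraries alone, and the cause of these changes was not tested. Without single libraries Gli3 ran from -6.37 to -5.45, Ptch1 from -1.87 to -1.45 and Smo from -3.83 to -2.95.

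The stimulus comparisons called 0 hedgehog genes under each alternative run and without each library (0 to 0). Ptch1 in ES-motor neurons under il1a+tnfa ran from -0.10 (without control D) to 0.53 without single libraries, with -0.02 without il1a+tnfa B. Over all genes, ES-motor neurons under tgfb2 gave 11 calls by DESeq2, 11 without a filter, 3 with the index primer as a term, 0 without the shallow libraries and 0 to 2 without single libraries (0 without tgfb2 A, tgfb2 D or control C), against 1. Under c1q+c5 they gave 3 without a filter and 2 without control D, against 0. Without a filter 1 gene was called under il1a+tnfa in each cell type and 1 in ES-motor neurons under il1b+il6, against 0. The interaction gave 0 hedgehog genes and 0 to 1 genes in all without single libraries. The relation of Ptch1 and Hhip turned to r = 0.386 within primer S339.

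With the replicate block, 3 hedgehog genes and 1775 genes were called by cell type. The stimulus comparisons and the interaction gave 0 hedgehog genes, ES-motor neurons under tgfb2 gave 4 genes, and no other call changed. By cell type the block takes libraries of equal treatment and letter as a pair. In the interaction it takes all libraries of equal letter together, over both cell types and all treatments. In the stimulus comparisons it takes stimulus and control libraries of equal letter. By cell type it moved Gas1 from 0.24 to 0.90, Cdon from -0.63 to -1.185 and Hhip from -2.91 to -2.25, none of them called. Letters were not taken to pair samples, although low correlations do not show that equal letters share no vial: deviations from group means correlated from -0.168 to 0.112 over 20 pairs across cell types (1 above 0.1), from -0.236 to 0.418 over 16 pairs in ES-astrocytes (1 above 0.1) and from -0.108 to 0.143 over 16 pairs in ES-motor neurons (2 above 0.1).

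The fit without shallow libraries was not run for ES-motor neurons under il1a+tnfa, where all 4 are shallow, nor for the stimulus comparisons of ES-astrocytes, which have none. For the interaction it left il1a+tnfa out. In 8 ES-motor neuron libraries the median ES-astrocyte level of Smo was under the 3-count limit. For Gli2 the bound ran down to 5.98-fold without il1b+il6 B.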
